A study of Mus musculus with 4 samples.

Results

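Cytosolic ribosomal protein genes, here RP genes, encode the protein part of the ribosomes that translate mRNA in the cytoplasm. They were taken from the gene symbols: those that begin with Rps or Rpl and a digit, and Rpsa, Rplp0, Rplp1 and Rplp2, without the Rps6k kinases and without symbols that carry -ps. This gave 86 of the 32286 features of the deposited matrices, 34 with a small subunit symbol and 52 with a large subunit symbol. The rule also takes in Rps19bp1, which encodes a binding partner of RPS19 and not a ribosomal protein, and 8 paralogs. Among the genes it misses, Fau and Rack1 also encode proteins of the ribosome and are given beside the members. The remaining 77 members are called core members below.

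The libraries came from mouse tumours whose tissue the submitters label MB, each from fresh dissociated tissue read by single-cell RNA sequencing with the 10x Genomics 3' V3 chemistry. There were 4 libraries, 1 for each of 2 genotypes in each sex. All 4 carry fSMO-M2, an activated Smoothened that turns on Hedgehog signalling once recombined, together with hGFAPcre, in which the human GFAP promoter drives the Cre recombinase, and this genotype is named SG. The other genotype, YSG, adds fYap1, a floxed allele of Yap1, and the design text calls these animals rescued and taken at end point. The number of animals per library and their ages were not stated, and no tumour-free control is among the samples analysed.

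Ribosomes hold a small subunit, which reads the mRNA, and a large subunit, which joins the amino acids. Most RPs are used in equal number per ribosome, and RP genes are among the most abundant mRNAs of dividing cells. Many mammalian RP mRNAs begin with a C followed by a run of pyrimidines (C or T), the 5' terminal oligopyrimidine motif, through which mTOR controls their translation, and mTOR signalling is known to act in the Hedgehog-driven growth of cerebellar granule neuron precursors.

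To show how such starts look in the members named below, windows from 60 bases before to 20 bases after the annotated transcript start are printed 5' to 3' for the members at both ends of the ranking between maturing and cycling cells that the RefSeq table of build GRCm38.p6 holds. Capitals mark a C within 10 bases of the start with the pyrimidines that follow it, 7 or more in all. They also mark the letters CCGGAAG on either strand. The base before the C was not checked, so the C need not open the run. In the windows of Rpl22l1 and Rpl38 the letters tt stand before it. Rpl22l1, Rpsa, Rps2 and Rpl14 were the members with large falls, and Rpl38, Rps27 and Rpl36al those with small ones.
Rpl22l1 (chr3:28805448-28805527, plus strand): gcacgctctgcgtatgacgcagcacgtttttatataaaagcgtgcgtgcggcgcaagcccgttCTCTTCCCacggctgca
Rpsa (chr9:120127706-120127785, plus strand): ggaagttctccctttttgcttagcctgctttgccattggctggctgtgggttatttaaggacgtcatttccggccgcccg
Rps2 (chr17:24720003-24720082, plus strand): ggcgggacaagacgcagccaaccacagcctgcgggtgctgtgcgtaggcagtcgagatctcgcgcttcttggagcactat
Rpl14 (chr9:120571457-120571536, plus strand): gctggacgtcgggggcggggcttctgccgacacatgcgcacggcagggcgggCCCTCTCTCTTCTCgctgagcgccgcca
Rpl38 (chr11:114668520-114668599, plus strand): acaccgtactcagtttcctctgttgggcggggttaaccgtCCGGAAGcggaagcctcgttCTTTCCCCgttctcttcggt
Rps27 (chr3:90213629-90213708, minus strand): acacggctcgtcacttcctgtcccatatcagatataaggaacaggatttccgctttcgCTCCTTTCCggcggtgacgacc
Rpl36al (chr12:69184048-69184127, minus strand): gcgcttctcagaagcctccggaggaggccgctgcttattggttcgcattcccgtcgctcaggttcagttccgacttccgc
The windows of Rpl22l1, Rpl14, Rpl38 and Rps27 show the pyrimidine run, so it stands at both ends of the ranking. The Rpsa and Rps2 windows hold no capitals, but CCGGAAG lies elsewhere in their stretch of 300 bases, and the stretch of Rpl36al holds neither. The table held 66 of the 86 members. The pyrimidine run was found in 26 of them (39.4%), against 12.9% of the 27025 genes of the table. CCGGAAG, on either strand and anywhere in the 300 bases, where it may overlap the run, was also found in 26 of the 66 (39.4%), against 9.93% of all genes. These are matches of letters and say nothing of which factor binds there.

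The deposited libraries held between 58478914 and 86906706 unique molecular identifiers, or UMIs, each standing for 1 captured mRNA molecule. Barcodes with at least 500 UMIs, 300 genes and at most 20% mitochondrial UMIs were kept, which left 31150 of 31533 cells, 7193 to 8419 per library, with a median of 5872.5 to 7419.5 UMIs. Across the libraries, 90 barcodes occurred more than once. Yap1, the targeted gene, had 266 UMIs in the SG male library and 374 in the SG female library, against 10 in the YSG male and 3 in the YSG female library, as the genotype labels have it. With 1 library per genotype and sex, a difference within a sex has no replicate, and its interval covers counting error only.

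RP genes made up 12.1% of all UMIs in the SG male library, 11.9% in the YSG male, 11.7% in the SG female and 11.7% in the YSG female library. The shares lay within 1 percentage point of each other. Between genotypes the log2 ratio of YSG over SG was -0.034 in males (95% exact counting interval -0.036 to -0.033) and 0.0050 in females (0.0036 to 0.0064). The male value was slightly below 0 and the female value slightly above it, and the intervals are this narrow because they rest on 6826731 to 10128232 RP UMIs per library and not on repeats of a condition. Single cells spread more widely than libraries: in the SG male library the lower and upper quartiles were 9.97% and 14.5%.

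Individual members spanned a wide range of levels. In CPM, the UMIs of a gene per 1000000 UMIs of the library or state, the median member stood at 1361 in the SG male, 1304 in the YSG male, 1342 in the SG female and 1380 in the YSG female one. Among the paralogs, Rpl10l had 1 UMI in all 4 libraries together, and Rpl39l and Rpl3l had 1 UMI in each female library and none in the males. In other mouse tissues these copies are known as testis or muscle forms, and here they were at or under the limit of 3 UMIs that a count of 0 allows. The other 83 members were measured in every comparison.

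Cells were placed in states by marker genes, with rates taken over UMIs that were neither RP nor mitochondrial so that the gate did not use the RP counts. Cycling cells were gated on mitosis and S phase genes such as Mki67 and Top2a, early postmitotic cells on Cntn2, Robo3, Nhlh1 and Nhlh2, and maturing postmitotic cells on Grin2b, Kcna1, Unc5c, Cbln1, Gabra6 and Rbfox3. Mitotic and neuronal genes kept outside the gates separated cycling from early cells in every library. Kif11, a mitotic motor, stood at 255 to 297 CPM in cycling and 4.96 to 9.76 CPM in early cells, and Stmn2, a neuronal tubulin regulator, at 106 to 354 CPM in cycling and 833 to 1274 CPM in early cells. Mapt, the axonal protein tau, stood at 28.4 to 64.3 CPM in cycling, 94.1 to 132 CPM in early and 176 to 200.4 CPM in maturing cells. Other neuronal genes did not rise further from early to maturing cells in every library: Tubb3, a neuronal tubulin, went from 807 to 927 CPM in early to 556 to 741 CPM in maturing cells and was lower in all 4 libraries, and Stmn2 went from 957 to 873 CPM in the YSG male library. Of the progenitor genes kept outside the gates, Gli1 stood at 32.1 to 58.1 CPM in cycling and 4.62 to 15.8 CPM in early cells. Ptch1 stood at 247 to 434 CPM in cycling and 127 to 194 CPM in early cells. Atoh1, which defines granule neuron precursors, was present in all 4 libraries at 24.0 to 38.6 CPM in cycling cells. It did not separate the states, with 22.1 to 32.7 CPM in early and 5.57 to 44.8 CPM in maturing cells. The labels do not spell out MB, and of the genes named here outside the gates only Atoh1 is given as a granule neuron lineage gene.

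RP genes took a smaller share of the UMIs in postmitotic than in cycling cells. In the SG male library the share was 12.02% in 2598 cycling cells, 10.90% in 1544 early cells and 9.28% in 74 maturing cells. In the YSG male library it was 11.98% in 1868 cycling, 10.55% in 1671 early and 10.6% in 117 maturing cells. In the SG female library it was 11.5% in 2629 cycling, 10.3% in 1320 early and 10.8% in 58 maturing cells. In every library both postmitotic states lay below the cycling cells, and the early values of all 4 libraries lay below all 4 cycling values. The YSG female library, with 301 maturing cells the best filled, went from 11.97% in 1431 cycling cells over 10.1% in 2059 early cells to 9.20% in maturing cells.

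Averaged over the 4 libraries, the share of early minus cycling cells was -1.42 percentage points (SD 0.33, n = 4, lower in 4 of 4). For maturing minus cycling cells it was -1.92 points (SD 0.996, n = 4, lower in 4 of 4). A two-sided exact permutation test by sign flips gave p = 0.12 for each, which is the smallest value 4 pairs can give, so this design cannot pass 0.05. Maturing and early cells did not separate in the share over summed UMIs. The mean difference was -0.50 points, lower in 2 of 4 libraries (exact permutation p = 0.5). Maturing cells were lower there in the SG male and YSG female libraries and higher in the YSG male and SG female ones. Halved gates gave the same directions. As a mean over cells the maturing share was lower in every library, at 8.83%, 10.02%, 9.76% and 8.70%. The early means were 10.73%, 10.25%, 10.13% and 9.81% (SG male, YSG male, SG female, YSG female). Doubled gates, with 35 to 233 maturing cells, also gave lower shares over summed UMIs in every library. These were 8.01%, 9.23%, 7.78% and 7.74%, against 10.5%, 9.90%, 9.85% and 9.54%.

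Depth moved with state: cycling cells had a median of 8696 to 12331 UMIs and early cells 5115 to 5976.5. Within 3 ranges of UMIs per cell (500 to 4000, 4000 to 8000, and 8000 or more), early cells had the lower share in 12 of 12 comparisons of library and range, with differences from -6.28 to -0.99 points. Maturing cells were lower in the 8 comparisons that held enough cells, with differences from -7.30 to -0.45 points. Cells outside all gates, 3272 to 4055 per library, had a higher share than cycling cells, at 12.8% and 12.3% in SG and YSG males and 12.4% and 12.6% in SG and YSG females, but within the ranges of depth cycling cells were lower in 7 of 12 comparisons only. In none of these is the share an amount of RP mRNA per cell, since it also falls when other transcripts rise.

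**Figure D1:**
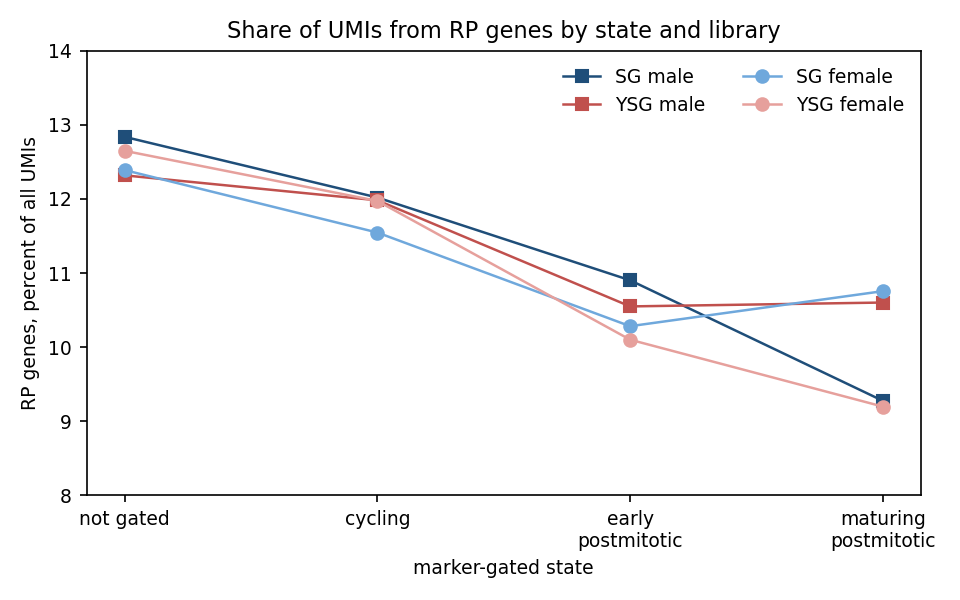
Share of all UMIs that came from the 86 RP genes, in percent, for cells outside the gates and for cycling, early postmitotic and maturing postmitotic cells. Each line is 1 of the 4 libraries, the axis starts at 8%, and in every library the early and maturing points sit below the cycling point, with maturing at 9.28%, 10.6%, 10.8% and 9.20%.

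Gene by gene, UMIs were summed per library and state and tested with edgeR's quasi-likelihood test with the library as a block, so that the 4 libraries are the replicates. Between maturing and cycling cells 79 of the 83 members tested fell and 0 rose at an adjusted p under 0.05, with 80 at an unadjusted p under 0.05. Of all 13136 genes 23.6% fell, and of the genes at 100 CPM or more, to which nearly all members belong, 50.5% fell. The median log2 fold change of the members was -0.40, against -0.03 over all genes and -0.19 over the other genes at 100 CPM or more. Among the members that did not pass the test Rps14 had a log2 fold change of -0.10, Rps27rt -0.12 and Rps19bp1 -0.13.

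Between early and cycling cells 75 of 83 members fell and 0 rose, with a median of -0.27, against 32.6% of all genes and 50.5% of the genes at 100 CPM or more that fell. The 8 members outside the call included Rps14, Rpl38, Rps19bp1, Rps3, Rps27, Rpl36 and Rps27rt, and 4 of the 8 were the members not called in maturing cells. Between maturing and early cells Rps3 alone fell, by 0.23 on the log2 scale (adjusted p = 0.037), where 1.04% of all genes fell, and 0 members fell when the SG male, the SG female or the YSG female library was left out. With all gate thresholds doubled, 62 members fell between early and maturing cells, on 52 to 233 maturing cells in 3 libraries, since the maturing cells of the SG female library, then 35, were under the 50 cells a sum had to hold. At the original gates, but without a filter on low counts, 20 members fell. The count between the postmitotic states thus moved with the gates, the filter and the libraries used.

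These folds are relative to the trimmed mean scaling (TMM) of edgeR. With total UMIs as the library size the median of all genes moved from -0.03 to 0.11 between maturing and cycling cells and from 0.01 to 0.13 between early and cycling cells. The members then had a median of -0.25 and -0.15, with 79 and 75 of 83 below 0, and 57 and 50 of them fell. The members stayed below the median of all genes under both scalings, but small changes, such as those of Rpl38 and Rps27, did not pass with total UMIs.

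**Figure D2:**
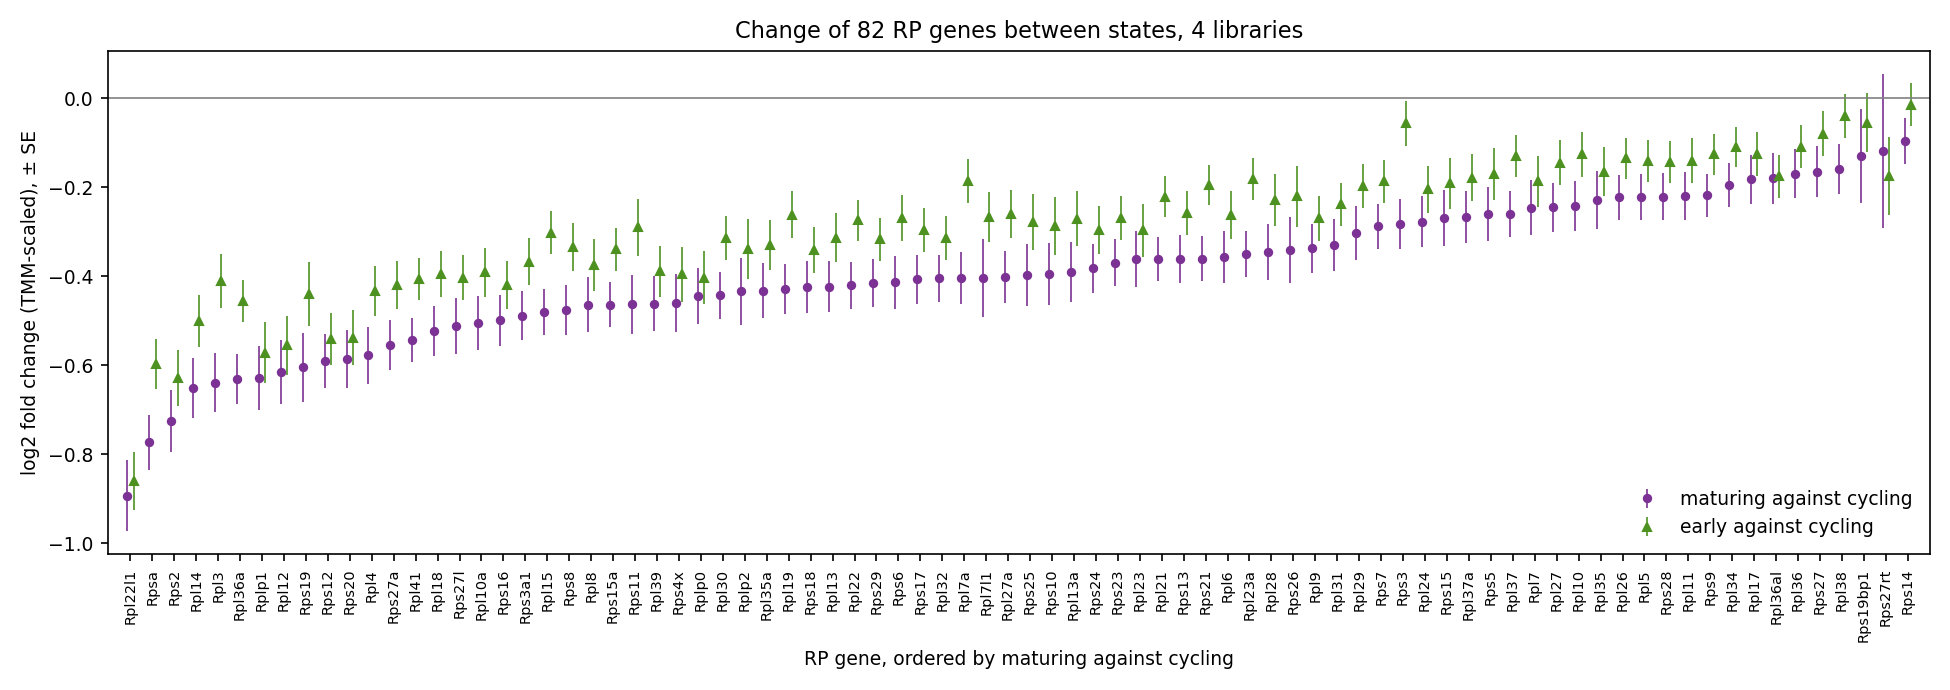
Log2 fold change of 82 of the 83 RP genes tested, maturing against cycling (circles) and early against cycling (triangles), ordered by the maturing value. Bars are standard errors computed from the log2 fold change and the F statistic of the edgeR test over 4 libraries. All points lie below 0 under TMM scaling, and the maturing values run from -0.89 for Rpl22l1 to -0.10 for Rps14.

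Both subunits took part. Of the small subunit symbols 31 of 34 fell between cycling and maturing cells (median -0.40), and of the large subunit symbols 48 of 49 (median -0.39). Among the core members 75 of 77 fell. Beside these counts, 23.6% of all genes and 50.5% of the genes at 100 CPM or more fell. Of the ribosomal proteins outside the symbol rule, Rack1, a signalling scaffold on the small subunit, fell by 0.33 (adjusted p = 4.36e-05), and Fau, a ubiquitin-like fusion that gives RPS30, fell by 0.30 (adjusted p = 0.00046).

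In the small subunit Rpsa and Rps2 stood lowest. Rpsa, also known as the laminin receptor, had 1982 CPM in cycling cells of SG males, 2480 in YSG males, 2092 in SG females and 2112 in YSG females, the order kept below. In maturing cells it had 1133, 1839, 1487 and 1231 CPM, every one below the lowest cycling value. The log2 fold change was -0.77 (SE 0.06, adjusted p = 1.98e-08), and in early cells it was -0.60 (adjusted p = 6.85e-08).

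Rps2, a protein of the small subunit near the mRNA entry channel, had 1010, 2072, 1150 and 1639 CPM in cycling cells in the same order of libraries. It had 573, 1453, 940 and 1004 CPM in maturing cells, below cycling cells in each library, although the groups overlap, and the 2 YSG libraries were higher than the SG libraries in both states. Its log2 fold change was -0.73 (SE 0.07, adjusted p = 2.11e-07).

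At the other end, Rps27, a zinc finger protein of the small subunit, had 678, 589, 750 and 583 CPM in cycling and 668, 613, 819 and 511 CPM in maturing cells. The groups overlap and the libraries went in both directions on the CPM scale. The TMM-scaled change of -0.17 passed at an adjusted p of 0.028, and without TMM it was -0.018 (adjusted p = 0.85). Rps14, a protein of the small subunit platform, had 1865, 2056, 1733 and 1830 CPM in cycling and 1795, 2083, 1954 and 1920 CPM in maturing cells and did not pass (adjusted p = 0.14). Rps3, which lines the mRNA entry, had 1186, 1445, 1187 and 1371 CPM in cycling, 1300, 1428, 1275 and 1392 CPM in early and 1007, 1416, 1126 and 1185 CPM in maturing cells. Its maturing value was the lowest of the 3 states in each library.

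In the large subunit Rpl22l1, the paralog of Rpl22, stood lowest of all members. It had 446, 484, 452 and 592 CPM in cycling cells, 272, 289, 281 and 335 CPM in early cells and 262, 302, 355 and 290 CPM in maturing cells. Neither postmitotic group overlaps the cycling group. The log2 fold change was -0.89 in maturing cells (SE 0.08, adjusted p = 9.62e-08) and -0.86 in early cells (SE 0.06, adjusted p = 2.91e-09), and between maturing and early cells it was -0.03 and did not pass (adjusted p = 0.90).

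Rpl14 had 964, 817, 917 and 817 CPM in cycling and 676, 632, 748 and 477 CPM in maturing cells, again with no overlap, and a log2 fold change of -0.65 (SE 0.07, adjusted p = 4.72e-07). Rpl3, which shapes the peptidyl transferase centre, had 1852, 1758, 1773 and 1756 CPM in cycling and 1135, 1423, 1430 and 1121 CPM in maturing cells. Its change was -0.64 (SE 0.07, adjusted p = 4.56e-07). The stalk proteins that recruit the translation factors, Rplp0, Rplp1 and Rplp2, fell by 0.44, 0.63 and 0.43.

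Small changes in the large subunit were those of Rpl38, Rpl36, Rpl36al and Rpl17. Rpl38, which in mouse embryos is known for its role in translating Hox mRNAs, had 636, 595, 682 and 579 CPM in cycling and 587, 621, 720 and 549 CPM in maturing cells. The groups overlap, 2 libraries were higher and 2 lower on the CPM scale, and the TMM-scaled change was -0.16 (adjusted p = 0.030). Rpl36 changed by -0.17, Rpl36al by -0.18 and Rpl17 by -0.18, and for these 4 and Rps27 the call was lost when at least 1 of the libraries was left out, the YSG female library in each case.

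Among paralog pairs the members did not move by the same amount. Rpl22 fell by 0.42 and Rpl22l1 by 0.89, Rps27l by 0.51 and Rps27 by 0.17, Rpl36a by 0.63 and Rpl36al by 0.18, and Rpl7l1 by 0.40 and Rpl7 by 0.25 between cycling and maturing cells. No test of the difference within a pair was made. Of the X-linked members Rps4x fell by 0.46, Rpl39 by 0.46, Rpl36a by 0.63 and Rpl10 by 0.24.

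**Figure D3:**
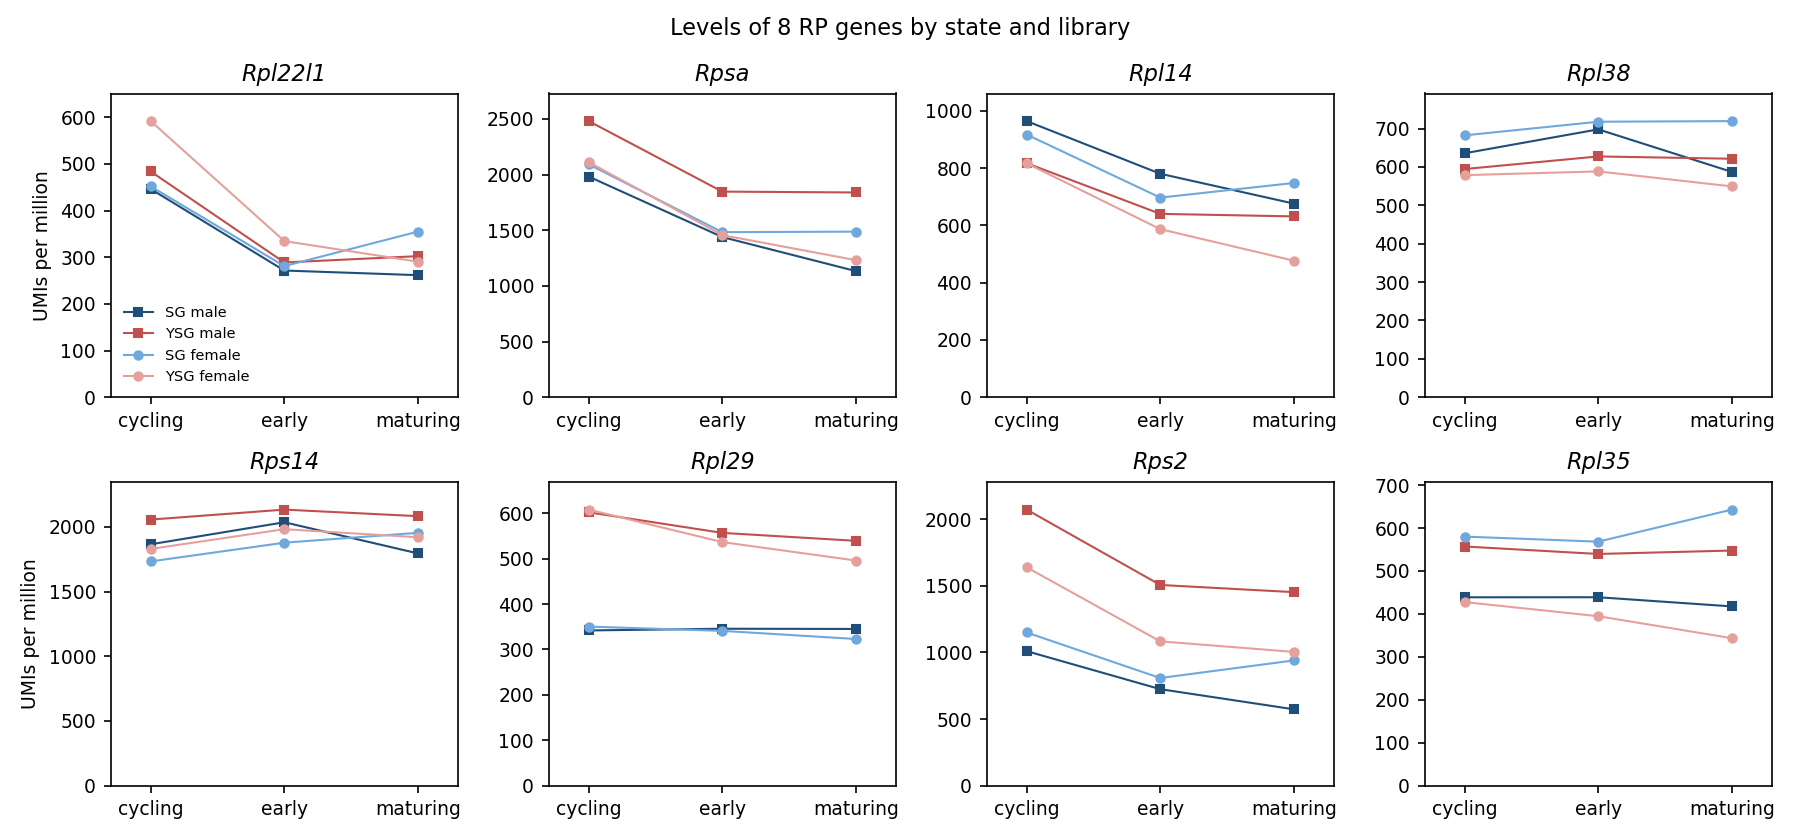
Level of 8 RP genes in CPM, for cycling, early and maturing cells, with 1 line per library and axes from 0. Rpl22l1, Rpsa and Rpl14 are lower in both postmitotic states in all 4 libraries, Rpl38 and Rps14 overlap between states, Rpl29 and Rps2 are higher in both YSG libraries in every state, and Rpl35 is higher in the YSG male and the SG female library.

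The genes that build and use ribosomes were set beside the members. Of 25 ribosome biogenesis genes 22 fell between cycling and maturing cells, with a median log2 fold change of -0.89, beside -0.40 for the RP genes. Ncl (nucleolin) fell by 0.83, Npm1 (nucleophosmin) by 0.94, Nop58 of the box C/D snoRNP by 1.22 and Dkc1, the pseudouridine synthase, by 1.13. Of 30 translation factors 27 fell and 2 rose, with the same median of -0.40 as the members. Eef1a1, the ubiquitous elongation factor, fell by 0.39, while its neuronal and muscle counterpart Eef1a2 rose by 2.40 and Eif4a2 by 0.50. Of 78 mitochondrial RP genes 25 fell and 1 rose, with a median of -0.18. For all lists in this paragraph the background is that 23.6% of all genes fell. Of the genes at 100 CPM or more 50.5% fell, and those that are not members had a median of -0.19. Of 15 genes of mTOR control 5 fell and 1 rose: Eif4ebp1, a repressor of cap-dependent initiation, fell by 1.45, Larp1, which binds the pyrimidine run, fell by 0.31, and Tsc1, an inhibitor of mTOR, rose by 0.50.

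Other cell types were few. Cells gated as oligodendrocyte precursors, 71 in all, had an RP share of 9.29% to 10.5%. Astroglia-gated cells, 442 in all, had an RP share of 10.8% and 11.1% in SG and YSG males and 10.8% and 11.3% in SG and YSG females, and 102 oligodendrocyte-gated cells 9.68% to 11.7%. Leukocyte-gated cells, 88 in all, stood at 17.3%, 17.1% and 17.1% in the SG male, YSG male and YSG female libraries. These values rest on 12, 25 and 41 cells. The 10 leukocyte-gated cells of the SG female library stood at 9.34%.

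Whether the state difference itself depended on genotype was tested as an interaction. Of the 83 members 0 passed for maturing against cycling, where 0.556% of all genes did, and 0 passed for early against cycling, where 5.38% of all genes did. At an unadjusted p under 0.05 there were 2 and 1 members with edgeR and 1 and 3 with DESeq2, which called 0 in both. With edgeR the early term, YSG minus SG, was below 0 in 75 members (median -0.06), against 6982 of 13136 genes (median -0.02). The maturing term was below 0 in 55 members (median -0.02), against 6124 genes (median 0.04). The members share the 4 libraries, so these counts are no test. The standard error of the maturing term was 0.15 for Rpl22l1 and 0.12 for Rpsa. In the share itself the maturing cells went in opposite ways, with a log2 ratio of YSG over SG of 0.19 in males and -0.23 in females, on 74 against 117 and 58 against 301 cells. For cycling cells the ratio in males was -0.0045 and that in females 0.052, and in early cells -0.047 and -0.026.

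Between genotypes, over all kept cells, most members lay close to no difference. In males 4 of 83 members were higher in YSG by more than 0.25 on the log2 scale, against 17.5% of 10180 genes, and 5 were lower, against 17.7%. In females 3 members were higher, against 22.4% of 10379 genes, and 5 lower, against 19.5%. Among genes at 100 CPM or more 19.8% passed in either direction in males and 27.3% in females. The median member had a log2 ratio of -0.06 in males and -0.01 in females, with all genes at -0.01 and 0.00. With the male and the female library taken as the 2 replicates of a genotype and sex as a term, which leaves 1 residual degree of freedom and assumes the same difference in both sexes, edgeR called 2 of 83 members, both higher in YSG, where 17.3% of 16489 genes and 13.1% of those at 100 CPM or more were called. Cycling cells made up 30.9% of the SG male and 23.7% of the YSG male library, and 34.3% of the SG female and 19.9% of the YSG female library, and the part of this in the genotype values was not tested.

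Rpl29 (chr9:106429454-106431568, mm10, plus strand), a large subunit protein that also binds heparin, had 348 CPM in the SG male and 356 CPM in the SG female library, against 599 and 596 CPM in the YSG male and YSG female libraries. The genotypes do not overlap, and the sexes within a genotype differ by less than 10 CPM. The fold of YSG over SG was 1.72 in males (95% counting interval 1.69 to 1.75) and 1.68 in females (1.65 to 1.70). In the fit over both sexes the log2 fold change was 0.76 (SE 0.09, adjusted p = 0.00079). The gap was present in each state, with 342 and 350 CPM in SG against 602 and 608 CPM in YSG cycling cells.

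Rps2 (chr17:24718116-24721929, mm10, plus strand) had 953 and 1094 CPM in the SG male and SG female libraries and 1901 and 1459 CPM in the YSG male and YSG female libraries. Both YSG values lie above both SG values, and the male gap was the larger, with folds of 1.99 (1.98 to 2.01) and 1.33 (1.32 to 1.35). The log2 fold change over both sexes was 0.70 (SE 0.14, adjusted p = 0.010). Many RP genes have processed copies elsewhere in the genome: 74 of the 86 members share a stretch of 60 bases near the 3' end of their transcripts with at least 1 other gene of the GENCODE M21 annotation, with a median of 5 such genes. Rpl29 shares one with 61 genes and Rps2 with 53, among the highest numbers, and Rpl21 with 55, which had log2 ratios of -0.09 and -0.05 between genotypes. Few of these genes are features of the matrices: 1 of those for Rpl29, 0 of those for Rps2 and 1 of those for Rpl21. How the counting treated reads that match such copies, and its part in these differences, was not tested. The labels give no strain background, so its part cannot be told apart from that of the genotype.

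No other member passed the test, and the next ones are given as values. Rps27 had 726 and 793 CPM in the SG male and SG female libraries and 612 and 630 CPM in YSG, with a log2 fold change of -0.30 (adjusted p = 0.067). Rpl41, a very short basic protein of the large subunit, had 2349 and 2491 CPM in SG and 2085 and 1923 CPM in YSG (log2 fold change -0.28, adjusted p = 0.12). Both YSG values lay below both SG values for these genes, as they did for Rpl14, with 935 and 885 CPM in SG and 774 and 745 CPM in YSG (log2 fold change -0.27, adjusted p = 0.090). Rps29, Rplp2 and Rpl39 had log2 fold changes of -0.27, -0.25 and -0.24, with adjusted p from 0.11 to 0.17. On the higher side Rps3 had 1256 and 1238 CPM in SG and 1480 and 1432 CPM in YSG (log2 fold change 0.22, adjusted p = 0.18), and Rpl5, Rpl13a and Rps18 had 0.14, 0.14 and 0.12. With no filter on low counts 8 members were called, these 6 lower ones in addition to Rpl29 and Rps2.

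Some members went in opposite directions in the sexes. Rpl35, at the exit of the peptide tunnel, had 460 CPM in the SG male and 570 CPM in the YSG male library, and 605 CPM in the SG female and 437 CPM in the YSG female library. The order of genotypes was thus turned around between the sexes, with log2 ratios of 0.31 and -0.47. Rps27rt, a retrogene copy of Rps27, was at 23.2 and 15.2 CPM in males and 18.1 and 26.0 CPM in females (log2 ratios -0.57 and 0.50). Rpl10, an X-linked gene needed for joining of the subunits, had 755 and 892 CPM in males and 859 and 734 CPM in females (log2 ratios 0.24 and -0.23). With 1 library for each genotype and sex, such a turn cannot be told apart from a difference between single libraries.

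**Figure D4:**
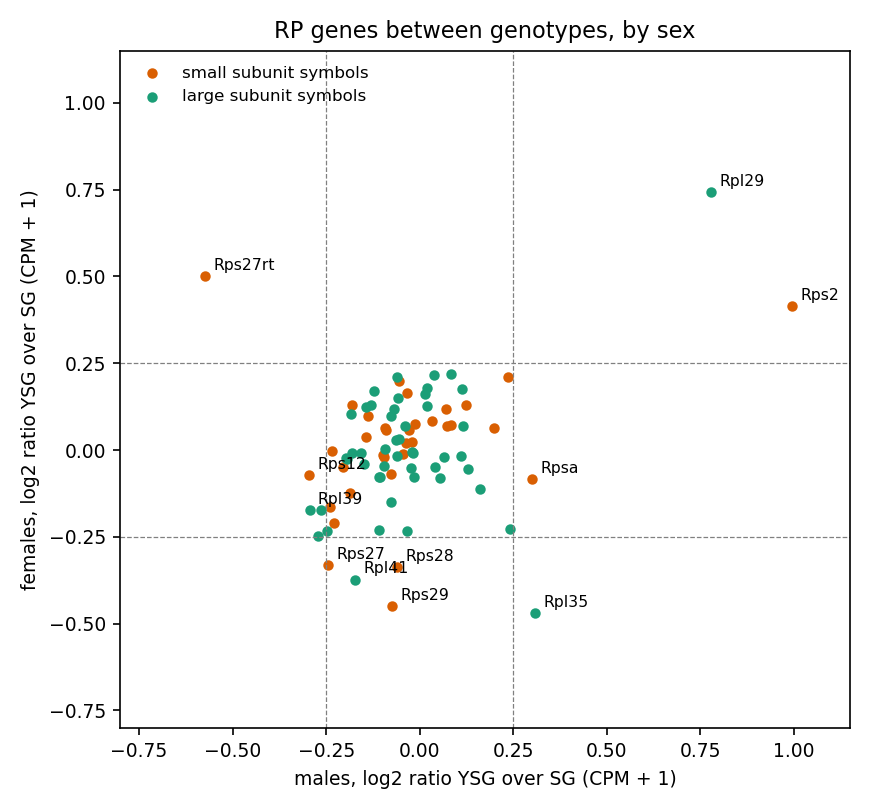
Log2 ratio of YSG over SG for each of the 83 RP genes measured, males on the horizontal and females on the vertical axis, in CPM with a pseudocount of 1 CPM. Dashed lines mark 0.25 in either direction. Most points lie inside them, Rpl29 and Rps2 lie above them in both sexes, and Rpl35 and Rps27rt lie on opposite sides.

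Between the sexes no member was called: 0 of 83 passed with edgeR, with 0 at an unadjusted p under 0.05, and DESeq2 also called 0, where 0.0667% of 16489 genes passed with edgeR. The members had a median log2 fold change of male over female of 0.07, against 0.06 over the other genes at 100 CPM or more. Over all genes it was -0.004. Rps15, at the decoding centre, had 1131 and 1199 CPM in the SG male and YSG male libraries and 1016 and 1068 CPM in the female ones (log2 fold change 0.20, adjusted p = 0.54). The X-linked Rps4x had 2140 and 2121 CPM in males and 1966 and 2072 CPM in females, and Rpl36a 636 and 561 CPM in males and 624 and 620 CPM in females.

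Among the related lists, 4 of 25 ribosome biogenesis genes fell in YSG in the fit over both sexes and 0 rose, with a median of -0.23, where 8.15% of all genes fell and 9.1% rose. Of the same 25 genes 22 fell between cycling and maturing cells, and cycling cells were the smaller share in both YSG libraries. The part of this share in the genotype values of the list was not tested. Gnl3 (nucleostemin) fell by 0.46, and Pes1, Rrp12 and Wdr12, all of ribosome assembly, by 0.45, 0.45 and 0.38. Of 30 translation factors Eef1a2 alone passed and rose by 1.497, of 15 genes of mTOR control Deptor, Eif4ebp3 and Eif4ebp1 fell, and of 78 mitochondrial RP genes 2 fell. These lists share the 4 libraries with the RP genes.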

How the data were processed

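The 4 single-cell RNA-seq libraries, 1 per genotype and sex, were analysed. The authors deposited filtered matrices of counts (UMIs per gene and barcode), made with Cell Ranger 5.0.1 per the file headers and on build mm10 per the submitters' processing notes. How reads that match several genes were counted is not given in the sources used here. Kept barcodes had at least 500 UMIs and 300 genes, with mitochondrial UMIs at 20% or less, and no doublet caller was run. As an alternative the 5% of cells with the most UMIs were left out. Gates needed a marker rate per 10000 UMIs (neither RP nor mitochondrial) of 10 or more for cycling cells and of 5 or more, with 3 or more UMIs of 2 or more genes, for postmitotic cells, after cells with markers of another type had been taken out. UMIs were summed per library, or per library and state. The edgeR test (version 4.0.16, R 4.3.3) used TMM, filterByExpr and Benjamini-Hochberg adjustment over all genes tested at 0.05, and was tested on simulated data. The standard errors (SE) of edgeR folds are the size of the log2 fold change divided by the square root of its F statistic. DESeq2 1.42.0 was an alternative. Shares have exact 95% counting intervals, which cover counting error only. Ratios per sex used log2(CPM + 1), with genes at 5 CPM or more in either library.

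Members named between genotypes were, at 20 CPM or more, the 6 highest and 6 lowest by the mean of both sexes with the same sign. Between states they were the 5 highest and 5 lowest called, and between sexes the 3 largest. Paralogs, X-linked members and RP genes outside the rule were always included. Some genes that these rules name are not reported here. Other members were chosen after their values were seen. Members and lists were chosen with earlier results of these data known. Nothing says that the libraries come from separate litters or batches, so p-values measure only the spread between these 4 libraries. Coordinates and shared 3' stretches come from GENCODE M21, and start windows from RefSeq (GRCm38.p6). Tools were Python 3.11.15, numpy 2.4.6, scipy 1.17.1 and pandas 2.3.3.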

Additional observations from a re-analysis of the deposited data

Results flagged for a closer look

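The sign of the genotype difference was opposite in males and females for several RP values, and with 1 library per genotype and sex the difference between the sexes was not tested. For the RP share of all cells the log2 ratio of YSG over SG was -0.034 in males and 0.0050 in females. For cycling cells it was -0.0045 in males and 0.052 in females. For maturing cells it was 0.19 in males and -0.23 in females. Among single members the log2 ratio of Rpl35 was 0.31 for males and -0.47 for females, and that of Rps27rt -0.57 and 0.50. Rpl35 shares a 3' stretch with 7 other annotated genes and Rps27rt with 4, of which 1 each is a feature of the matrices. The part of such copies in these values was not tested. No group has 4 or more libraries, so no library could be set against its group.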

How the results depend on the processing

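Between cycling and maturing cells the count of members that fell stayed within 1.5 times its value of 79 under DESeq2, no TMM, no low filter and halved or doubled gates, and ran from 73 to 80 with 1 library left out. Early against cycling likewise kept within that range, with 62 to 74. Maturing against early was 1 and ran from 0 to 1 with a library left out, 0 without TMM, 20 without the filter and 62 with doubled gates. Members called between genotypes were 2, and 8 without the filter. Members lower in YSG went from 5 to 10 in males and from 5 to 11 in females with median of ratios scaling, which moved the median of all genes to -0.03 and -0.06, and to 1 and 0 at a threshold of 0.5. Those higher in males went from 4 to 2 at that threshold. Fits that pair libraries by replicate number could not be made, since each group holds 1 library and the labels give no such numbers. States were compared within each library, and sex was a term between genotypes.

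The log2 share ratio of all cells turned negative in females without the cells of most UMIs (-0.0048) and as a mean over cells (-0.030), and that of cycling cells turned positive in males with halved gates (0.021). The causes were not tested. As a mean over cells the other values were -0.056 (all, males), -0.0094 and 0.086 (cycling, males and females), -0.066 and -0.046 (early) and -0.17 (maturing, females). Halved gates gave 0.068 (cycling, females), -0.053 and -0.034 (early) and 0.081 and -0.18 (maturing). Doubled gates gave -0.023 and 0.033 (cycling), -0.089 and -0.046 (early) and -0.0071 (maturing, females). The stricter cell filter gave 0.0015 (all, females), 0.046 (cycling, females) and -0.043 (early, males), no filter 0.0065 (all, females), and leaving out the cells of most UMIs -0.00099 and 0.061 (cycling) and -0.033 (early, females). Without mitochondrial UMIs the female value over all cells was 0.0065, and without other cell types -0.036 in males and 0.0017 in females. Early minus cycling was -1.82 points with halved gates and -1.89 as a mean over cells. In the ranges of depth, chosen after seeing the data as were the halved gates for single members, it was -3.70 (500 to 4000 UMIs), -2.04 (4000 to 8000) and -1.16 (8000 or more), beside -1.42 over all cells. Maturing minus cycling was -3.25 points with doubled gates. Maturing values rest on 58 to 301 cells a library.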
